A study of Mus musculus with 6 samples.

Results

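The 10 genes described here encode tetraspanins carried by leukocytes: Tspan32, Cd81, Cd9, Cd37, Cd53, Cd63, Cd82, Cd151, Tspan4 and Tspan3. They were taken by gene name from tables of 51912 mouse gene records, and each name matched a single record. Tspan32 and Cd81 were put on the list because they had changed between the scaffolds in earlier results of these same data, so their difference between the scaffolds is given as a description and nothing is read from whether they passed a test. Only these 2 members were thus chosen by measured values, namely the counts and FPKM of the same 6 libraries. The other 8 were listed for comparison as tetraspanins that leukocytes carry, but with earlier results of these data known.

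The samples were bone marrow mononuclear cells of mice whose genotype is labelled as wild type, grown for 10 days on a scaffold of either PCL (n = 3 libraries) or hHVS (n = 3 libraries), after which polyadenylated RNA was sequenced. PCL commonly stands for polycaprolactone, a polyester, while hHVS is not spelled out in the labels. The labels do not say whether the libraries of a scaffold came from separate animals or cultures, so each p-value reflects spread among libraries that may be technical. The series compares how the materials act on these cells.

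Tetraspanins are small proteins that cross the membrane 4 times and gather integrins, immune receptors and proteases into clusters at the surface or in endosomes. In macrophages of the mouse, Cd9 and Cd81 restrain fusion into multinucleated cells, and Cd63 marks late endosomes, lysosomes and the small vesicles released from them. Cd37 and Cd53 are largely restricted to blood cells.

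Library totals lay between 72.1 and 83.6 M units of estimated count. About 4 units per sequenced fragment were assumed, because the value 4 was more frequent in the counts than 3 or 5. The first principal component of log2 CPM (the count after every library is brought to 1000000) held 28.3% of the variance and separated the scaffolds. On the second, which held 23.3%, PCL replicate 3 scored -53.6 and hHVS replicate 2 scored -32.1, whereas the remaining 4 libraries scored 10.4 to 31.8. Summed over 8 macrophage genes, held in 9 records since Itgam has a pair of them, the level was 8503 to 10100 FPKM (fragments per kilobase of transcript, per 1000000 fragments) on PCL and 11084 to 11702 FPKM on hHVS. Lyz2, the lysozyme gene that leads this list, was at 5938 to 7431 and 8510 to 9166 FPKM. All 9 records were tested, and 6 had a positive and 3 a negative log2 fold change, hHVS minus PCL (median 0.05). Among them edgeR called 0 (0.862% of all genes tested) and had 4 at an unadjusted p under 0.05 (13.1%). DESeq2 called 2 higher and 1 lower (4.85% of all genes), and limma-voom 0 (0.776%). Summed B cell markers were at 0.383 to 0.618 FPKM on PCL and 0.559 to 1.02 FPKM on hHVS, T and NK cell markers at 0.173 to 0.429 and 0.104 to 0.325 FPKM, dendritic cell markers at 0.463 to 0.66 and 0.423 to 0.667 FPKM, and neutrophil markers at 14.3 to 18.6 and 15.4 to 18.3 FPKM. Stromal markers summed to 8.38 to 33.8 FPKM on PCL and 3.24 to 15.9 FPKM on hHVS, and all 10 that were tested had a negative log2 fold change, hHVS minus PCL (median log2 fold change -1.04). Of these 10, edgeR called 0 (0.862% of all genes tested) and had 3 at an unadjusted p under 0.05 (13.1%). DESeq2 called 2 (4.85% of all genes) and limma-voom 0 (0.776%). Endothelial markers were at 4.8 to 7.74 and 3.55 to 4.31 FPKM, and erythroid markers at 8.39 to 10.0 and 8.52 to 9.61 FPKM. Mast cell and basophil markers were at 0.101 to 0.112 and 0.0785 to 0.163 FPKM with Fcer1a and Tpsb2 at 0. Osteoclast markers, led by Ctsk, were at 60.4 to 126 and 71.9 to 76.6 FPKM with Calcr at 0 in every library. Of 6 osteoclast markers 4 were tested, 2 with a positive and 2 with a negative log2 fold change. Called were 1 lower with edgeR (0.862% of all genes tested), 1 higher and 1 lower with DESeq2 (4.85%) and 1 lower with limma-voom (0.776%). The gene that edgeR called was Dcstamp, described below with the fusion genes.

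On hHVS the blood-cell tetraspanin Tspan32 was 7.03-fold higher than on PCL, Cd81 1.73-fold higher and Tspan3 1.59-fold higher, while the other 7 listed genes did not pass the test. All 10 genes passed the filter on low counts, and 3 were called higher and 0 lower with edgeR's quasi-likelihood test at an adjusted p under 0.05. Over all 16364 genes tested, 0.862% were called, 0.562% higher and 0.299% lower. In numbers these were 92 higher and 49 lower, against 71 and 74 when libraries were scaled by their totals alone. Since Tspan32 and Cd81 were listed for this very difference, nothing is read from the count of 3. Leaving them aside, 1 of 8 was called. The median log2 fold change of the 10 genes was 0.00, against -0.01 over all genes tested.

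Per length, the 10 genes fell into 3 tiers. Cd9, Cd63 and Cd53 stood at about 200 FPKM and more, and together made up 80.2 to 81.9% of the summed FPKM of the 10 genes in PCL libraries and 76.9 to 77.9% in hHVS libraries. On PCL, Cd9 was at 257 ± 24.2 FPKM, Cd63 at 218 ± 18.7 and Cd53 at 213 ± 6.31 (SD, n = 3), and each overlapped the next in the order. On hHVS the same 3 genes were at 210 ± 4.83, 204 ± 5.18 and 206 ± 6.13 FPKM, again with overlapping neighbours. The middle tier of Tspan4, Cd81, Cd151, Cd37, Cd82 and Tspan3 ran from 13.6 to 45.4 FPKM on PCL and from 15.8 to 52.6 FPKM on hHVS. Tspan32 stood far below all others, at 0.0916 to 0.145 FPKM on PCL and 0.572 to 0.898 FPKM on hHVS.

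The order within the middle tier differed between the scaffolds. For Cd81, which was listed for its change, this is a description. Tspan4, which is abundant in the migration-track vesicles called migrasomes, led it on PCL at 41.6 ± 3.8 FPKM, above Cd81 at 31.2 ± 2.36 FPKM with no overlap between their libraries. On hHVS Cd81 led at 51.5 ± 1.71 FPKM, above Tspan4 at 38.3 ± 0.703 FPKM, also with no overlap. Tspan3 and Cd82 overlapped on PCL, at 14.6 ± 0.921 and 15.3 ± 0.875 FPKM, and did not on hHVS, at 22.1 ± 1.34 and 16.7 ± 0.761 FPKM. Cd151 and Cd37 overlapped each other on both scaffolds (SD, n = 3 in each case).

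**Figure D1:**
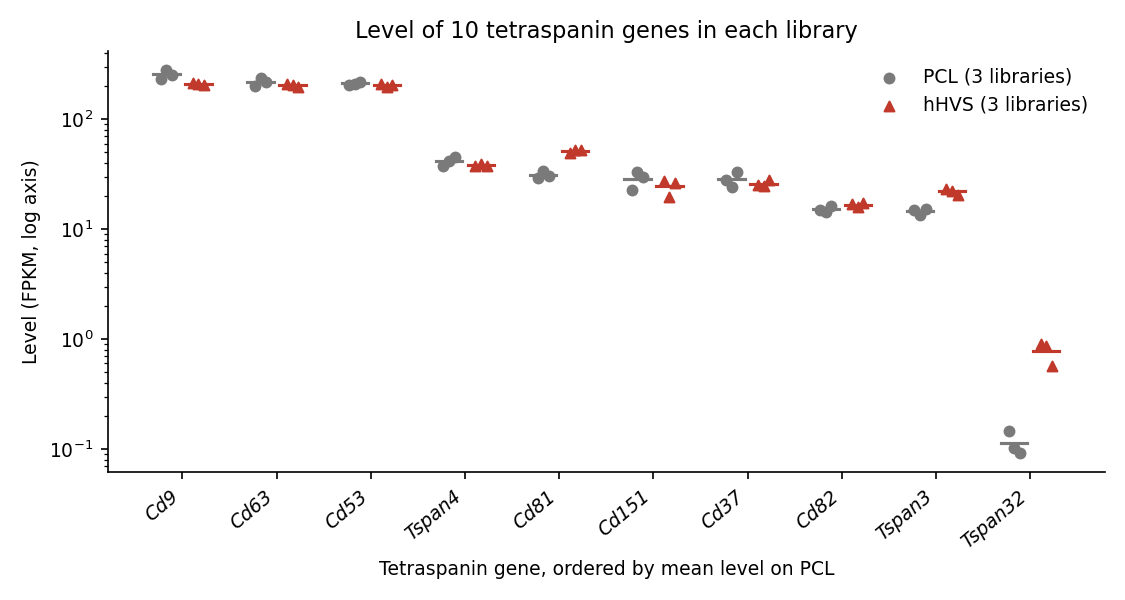
Level of each tetraspanin gene in every library, in FPKM on a log axis, with genes ordered by their mean on PCL; grey circles are the 3 PCL libraries, red triangles the 3 hHVS libraries and short lines the group means. Tspan32, Cd81 and Tspan3 have hHVS libraries wholly above PCL libraries, the hHVS libraries of Cd9 (205 to 215 FPKM) lie below its PCL libraries (234 to 282 FPKM), and Tspan32 remains under 1 FPKM.

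The 10 genes together summed to 848 ± 53.0 FPKM on PCL and 800 ± 14.6 FPKM on hHVS (SD, n = 3), with overlapping libraries. They held 86.3 to 86.9% of the FPKM of all 31 tetraspanin genes in PCL libraries and 86.6 to 86.8% in hHVS libraries. In these bulk samples, fewer cells of a type and less RNA per cell cannot be told apart.

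Tspan32 encodes a tetraspanin of blood cells that restrains T cell responses in the mouse. In units of estimated count it had 77, 52 and 50 in PCL replicates 1, 2 and 3, and 466, 503 and 314 in hHVS replicates 1, 2 and 3. Scaled to library size with TMM factors, these were 1.01, 0.717 and 0.644 CPM on PCL and 6.47, 6.10 and 4.10 CPM on hHVS. All hHVS libraries were above all PCL libraries. Every library was above 0.146 to 0.167 CPM, the level of a floor of 3 fragments (12 units, at the assumed 4 units per fragment). The log2 fold change, hHVS minus PCL, was 2.81 ± 0.27 (SE), with hHVS replicate 3 the lowest of its group. With log2(FPKM + 1) in place of counts the difference was 0.67, because the added 1 exceeds the gene's level on either scaffold. The B cell markers given above were also higher on hHVS in their summed level, with overlapping libraries, and 2 of the 6 were tested. Cd79b, the leading one, was at 0.277 to 0.434 FPKM on PCL and 0.436 to 0.786 FPKM on hHVS, without overlap but outside the threshold (adjusted p = 0.426, edgeR). Summed T and NK cell markers were at 0.336 ± 0.142 FPKM on PCL and 0.250 ± 0.127 FPKM on hHVS (SD, n = 3), with overlapping libraries. Of 8 such markers 2 were tested, 1 with a positive and 1 with a negative log2 fold change. Called were 0 with edgeR (0.862% of all genes), 0 with DESeq2 (4.85%) and 1 lower with limma-voom (0.776%). The part of B, T and NK cell markers in the Tspan32 difference was not tested.

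Cd81 encodes a widely expressed tetraspanin that, with Cd9, limits macrophage fusion. It was at 90.2, 107 and 93.0 CPM in the PCL libraries and at 164, 168 and 171 CPM in the hHVS libraries. The groups did not overlap, at 96.8 ± 9.18 and 168 ± 3.97 CPM (SD, n = 3). On the log2 scale the difference was 0.79 ± 0.08 (SE).

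Tspan3, a broadly expressed tetraspanin, was at 68.9, 64.0 and 69.2 CPM on PCL and at 114, 107 and 99.8 CPM on hHVS. Every hHVS library was above every PCL library. Tspan3 was higher by 0.67 ± 0.08 on the log2 scale (SE; the adjusted p from edgeR was 0.0153 over all genes). That call was lost when 1 library was left out, except PCL replicate 3: the adjusted p was 0.0534 and 0.0639 without PCL replicate 1 or 2, and 0.0766, 0.0724 and 0.0644 without hHVS replicate 1, 2 or 3 (edgeR). With PCL replicate 3 and hHVS replicate 2 both left out, 0 of the 10 genes were called, and the log2 fold changes of Tspan32, Cd81 and Tspan3 were 2.62, 0.76 and 0.69.

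Over 15 alternative fits the log2 fold change of Cd81 ran from 0.71 to 0.87 and that of Tspan3 from 0.56 to 0.72. That of Tspan32 ran from 0.67 to 3.03, the lowest again with log2(FPKM + 1).

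Cd9 and Cd82 differed in opposite directions by small amounts that did not pass. Cd9, needed on the egg for fusion with sperm and active in macrophage fusion, was at 513, 636 and 551 CPM on PCL and at 504, 479 and 474 CPM on hHVS. Its hHVS libraries were all below its PCL libraries, the closest pair differing by 513 against 504 CPM. The log2 fold change was -0.22 ± 0.09 (SE, adjusted p = 0.36, edgeR) with a 95% interval of -0.43 to -0.01. Cd82, known as a suppressor of metastasis, was at 48.6, 48.0 and 51.6 CPM on PCL and at 58.6, 53.2 and 58.6 CPM on hHVS. Its groups did not overlap in CPM either, but in FPKM they did, at 14.5 to 16.2 on PCL and 15.8 to 17.2 on hHVS. The log2 fold change of Cd82 was 0.20 ± 0.08 (SE, adjusted p = 0.323, edgeR, interval 0.02 to 0.38). In CPM, groups did not overlap for 5 of the 10 genes, the other 3 being Tspan32, Cd81 and Tspan3, and for 20.6% of all genes tested. Since Tspan32 and Cd81 were listed for their difference in these libraries, nothing is read from the count of 5. Leaving them aside, Cd9, Cd82 and Tspan3 remained.

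For the remaining 5 genes the groups overlapped. Cd53, a tetraspanin of all leukocyte lineages, was at 387 to 405 CPM on PCL and 388 to 421 CPM on hHVS, with a log2 fold change of 0.02 (95% interval -0.13 to 0.18) that became -0.06 when libraries were scaled by their totals alone. Cd37, found mainly on B cells and antigen-presenting cells, was at 94.8 to 125 and 96.7 to 111 CPM, with a log2 fold change of -0.07 (-0.34 to 0.20). Cd63 was at 787 to 962 and 828 to 883 CPM, with a log2 fold change of -0.02 (-0.23 to 0.18).

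Tspan4 was at 88.1 to 105 CPM on PCL and 93.6 to 95.3 CPM on hHVS, with a log2 fold change of -0.05 (95% interval -0.24 to 0.14). Cd151, which binds the laminin receptors of the integrin family, varied most within the groups among the 5. It was at 66.6, 101 and 87.6 CPM on PCL and at 87.2, 60.4 and 81.4 CPM on hHVS, with a log2 fold change of -0.16 (-0.59 to 0.28). Its lowest PCL library, replicate 1, had the highest sum of stromal markers of the PCL libraries, at 33.8 FPKM against 8.47 and 8.38. Its lowest hHVS library, replicate 2, had the lowest stromal sum of the hHVS libraries, at 3.24 FPKM against 15.9 and 9.48.

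**Figure D2:**
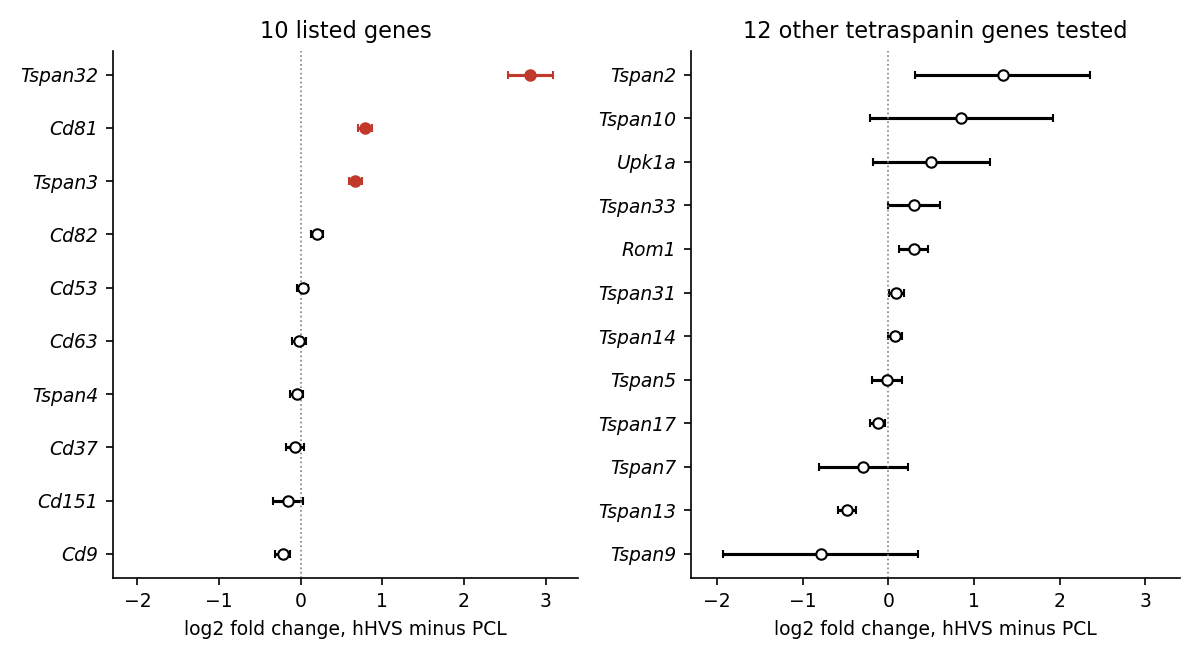
Log2 fold change, hHVS minus PCL, of the 10 listed tetraspanin genes (left) and of the 12 other tetraspanin genes that could be tested (right), with bars of 1 SE; filled red points passed the adjusted p of 0.05 and open points did not. Tspan32 (2.81), Cd81 (0.79) and Tspan3 (0.67) stand to the right, and the widest bars belong to genes near 0 FPKM such as Tspan2, Tspan9 and Tspan10.

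Cd9 and Cd81, the pair linked to macrophage fusion, stood in a different proportion on the scaffolds. The ratio of Cd81 to Cd9 FPKM was 0.125, 0.120 and 0.120 in the PCL libraries and 0.230, 0.249 and 0.257 in the hHVS libraries. The ratio was 0.122 ± 0.00293 on PCL and 0.245 ± 0.0134 on hHVS (SD, n = 3) and is a description, since Cd81 was listed for its change. Of 14 genes of macrophage fusion, 11 were tested, and with edgeR 0 rose and 1 fell (median log2 fold change -0.04), where 0.299% of all genes tested fell. At an unadjusted p under 0.05 edgeR had 5 of the 11, against 13.1% of all genes tested. DESeq2 called 2 of the 11 lower (4.85% of all genes called in either direction) and limma-voom 1 lower (0.776%). The gene that edgeR called was Dcstamp, a membrane protein gene needed for macrophages and osteoclasts to fuse. It was at 32.4, 61.6 and 29.8 CPM on PCL and at 6.17, 8.04 and 8.49 CPM on hHVS. Every hHVS library was lower than every PCL library. Its log2 fold change was -2.45 ± 0.30 (SE, adjusted p = 0.0165, edgeR), and without hHVS replicate 1, 2 or 3 the adjusted p from edgeR was 0.0871, 0.0720 and 0.0844.

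Among the 21 other genes of the tetraspanin family, 12 were tested, and with edgeR 0 rose and 0 fell (median log2 fold change 0.09). At an unadjusted p under 0.05 edgeR had 1 of the 12, Tspan13, against 13.1% of all genes tested. DESeq2, which called 4.85% of all genes, called that gene lower, and limma-voom, which called 0.776%, called 0. Tspan13, named after its values were seen, was at 62.6, 60.8 and 73.6 CPM on PCL and at 49.99, 47.9 and 43.5 CPM on hHVS (log2 fold change -0.48 ± 0.10, SE, adjusted p = 0.097, edgeR). The most abundant of the 12 was Tspan14, which helps the protease Adam10 mature, at 47.5 FPKM on PCL and 47.7 FPKM on hHVS (log2 fold change 0.08, 95% interval -0.11 to 0.27). The 9 genes that were too low to test were at no more than 0.0802 FPKM in any library, and Tspan11, Tspan15 and Upk1b were at 0 in all of them.

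Of 25 genes for proteins that tetraspanins bind at the surface, 19 were tested, and with edgeR 1 rose and 0 fell (median log2 fold change 0.04), where 0.562% of all genes tested rose. At an unadjusted p under 0.05 edgeR had 4 of the 19, against 13.1% of all genes tested. DESeq2 called 3 of the 19 higher (4.85% of all genes called in either direction) and limma-voom 0 (0.776%). The gene that edgeR called was Vcam1, an adhesion molecule that leukocyte integrins bind. It was at 4.60, 2.86 and 4.07 CPM on PCL and at 29.5, 14.3 and 11.5 CPM on hHVS. The groups did not overlap, and hHVS replicate 1 was well above the other hHVS libraries. Its log2 fold change was 2.26 ± 0.37 (SE, adjusted p = 0.0497, edgeR), and without any 1 library the adjusted p was 0.0684 to 0.154.

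Of 12 endosome and vesicle genes that work with Cd63, 11 were tested, and with edgeR 0 rose and 0 fell (median log2 fold change 0.09). Of the 11, edgeR had 2 at an unadjusted p under 0.05 (13.1% of all genes), DESeq2 called 1 (4.85% of all genes) and limma-voom 0 (0.776% of all genes). Lamp1, a lysosomal membrane protein gene and the most abundant of them, was at 656 FPKM on PCL and 721 FPKM on hHVS (adjusted p = 0.276, edgeR).

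**Figure D3:**
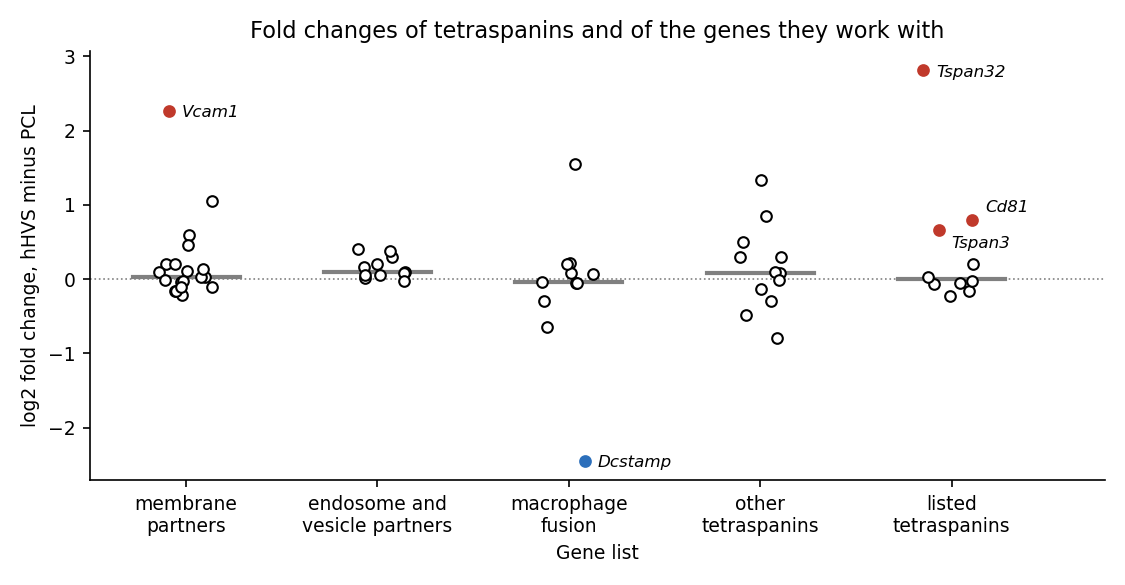
Log2 fold change, hHVS minus PCL, of every tested gene in 4 lists related to tetraspanins and in the 10 listed tetraspanins; each point is a gene, grey bars are list medians, red and blue points passed the adjusted p of 0.05 as higher and lower and are named, and points are spread sideways at random for sight. Medians lie between -0.04 and 0.09, with Vcam1, Dcstamp, Tspan32, Cd81 and Tspan3 as the genes called.

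Of the 10 genes, 5 lie on chromosome 7, and 4 of these form a pair of close couples, Cd37 being the exception. Tspan32 (chr7:143005046-143019644) and Cd81 (chr7:143052739-143067934) lie on the plus strand with 33.1 kb between them, and Cd151 (chr7:141467392-141471473) and Tspan4 (chr7:141475240-141493427) lie on the plus strand with 3.77 kb between them (GENCODE M21 on GRCm38). Tspan32 and Cd81 are both listed because they were higher on hHVS, so nothing is read from their lying side by side.

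Within 250 kb of the stretch from Tspan32 to Cd81 the annotation holds 19 other gene records, of which 4 were tested. Of these 4, edgeR called 0 (0.862% of all genes tested), DESeq2 0 (4.85%) and limma-voom 0 (0.776%). At an unadjusted p under 0.05 edgeR had 0 (13.1% of all genes). With 4 genes tested, nothing is read from these counts of 0. R74862, a noncoding transcript between Tspan32 and Cd81 on the other strand, was at 0.301, 1.28 and 0.464 CPM on PCL and at 1.24, 0.74 and 1.18 CPM on hHVS (log2 fold change 0.62 ± 0.55, SE). Tssc4, just beyond Cd81, was at 12.8 ± 2.21 CPM on PCL and 8.73 ± 3.59 CPM on hHVS (SD, n = 3), and its difference on the log2 scale was -0.55 ± 0.29 (SE, with an adjusted p of 0.466 from edgeR). The potassium channel gene Kcnq1 was at 0.217 ± 0.112 and 0.307 ± 0.193 CPM, and the long noncoding RNA Kcnq1ot1, which silences genes of this imprinted region on the paternal chromosome, at 20.8 ± 2.95 and 18.1 ± 1.31 CPM (log2 fold change -0.20 ± 0.12, SE). These 2 overlap on opposite strands. The other 15 records reached no more than 0.124 CPM in any library.

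**Figure D4:**
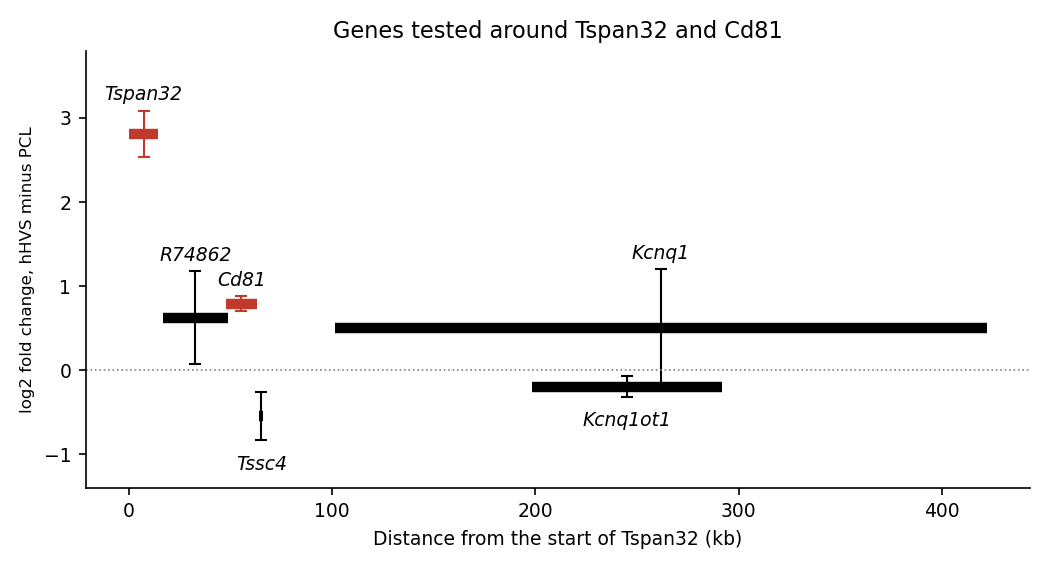
Log2 fold change, hHVS minus PCL, of the 6 tested genes around Tspan32 and Cd81 against distance from the start of Tspan32 in kb; thick bars span each gene, thin bars are 1 SE, and red marks genes past the adjusted p of 0.05. Tspan32 (2.81) and Cd81 (0.79) are red, Tssc4 next to Cd81 is at -0.55, R74862 at 0.62, Kcnq1 at 0.51 and Kcnq1ot1 at -0.20.

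The 250 bases before the RefSeq start are shown for Tspan32, Cd81, Tspan3 and Cd9, the fusion partner of Cd81. Tspan32 and Cd81 were listed for their change, so nothing is read from setting called genes against Cd9. In this order the 4 windows (GRCm38.p6, 5′ to 3′ on the strand of the gene) are at chr7:143004796-143005045 (plus), chr7:143052500-143052749 (plus), chr9:56161071-56161320 (minus) and chr6:125494761-125495010 (minus). Capitals mark matches on either strand to GGGCGG (a GC box) or TGCTGA (a short element of Maf factors).
Tspan32: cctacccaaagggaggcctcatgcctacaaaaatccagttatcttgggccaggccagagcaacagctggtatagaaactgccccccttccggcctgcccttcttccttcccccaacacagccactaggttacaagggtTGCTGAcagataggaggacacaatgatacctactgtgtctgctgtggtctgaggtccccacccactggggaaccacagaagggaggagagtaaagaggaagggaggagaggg
Cd81: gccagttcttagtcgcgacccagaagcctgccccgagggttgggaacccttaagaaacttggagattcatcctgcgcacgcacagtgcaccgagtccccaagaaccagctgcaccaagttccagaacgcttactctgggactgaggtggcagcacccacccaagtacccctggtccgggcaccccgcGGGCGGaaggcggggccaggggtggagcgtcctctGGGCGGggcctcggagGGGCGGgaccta
Tspan3: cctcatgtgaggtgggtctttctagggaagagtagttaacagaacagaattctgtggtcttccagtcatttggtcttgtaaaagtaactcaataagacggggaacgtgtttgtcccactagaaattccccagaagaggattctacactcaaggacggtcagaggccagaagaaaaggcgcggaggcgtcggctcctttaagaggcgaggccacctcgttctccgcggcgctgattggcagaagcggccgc
Cd9: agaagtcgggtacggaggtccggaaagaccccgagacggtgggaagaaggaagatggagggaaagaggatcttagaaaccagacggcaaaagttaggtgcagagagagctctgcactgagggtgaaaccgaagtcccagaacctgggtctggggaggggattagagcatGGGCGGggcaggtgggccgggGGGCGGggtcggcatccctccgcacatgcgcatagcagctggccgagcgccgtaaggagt
The windows of Cd81 and Cd9 each held 16 CG dinucleotides and that of Tspan3 held 14, whereas that of Tspan32 held 1, against a median of 6 over 32851 windows of this length in the RefSeq table. GGGCGG occurred 3 times before Cd81 and 2 times before Cd9, and in 32.7% of all windows. TGCTGA occurred 1 time before Tspan32 and in 16.1% of all windows. None of the 4 windows held TATAAA (12.4% of all windows), CACGTG (6.02%) or GAGGAAGT (2.44%), and the matches did not overlap each other. The RefSeq start of Tspan3 lies 4407 bases inside the gene as GENCODE annotates it, so its window may not be the start used in these cells.

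No 50-base word of Cd81, Cd37, Cd53, Cd82, Cd151 or Tspan4 occurred in transcripts of another gene, and for Tspan3 and Tspan32 it was 0.118% and 0.384% of words. For Cd9 it was 5.67%. For Cd63 it was 11.0%, of which most (9.70% of all words) occurred in its pseudogene Cd63-ps, which was itself at 82.7 to 110 CPM, so that the split of reads between the pair is uncertain. Tspan32os, antisense to Tspan32, reached 0.109 CPM, and R74862, which overlaps Cd81 by 948 bases, reached 1.28 CPM. The antisense neighbours Gm10575 of Cd151 and Chid1 of Tspan4 reached 11.2 and 24.0 CPM. No source used here says if strand was taken into account in counting, so values of overlapping antisense pairs are uncertain.

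For Tspan32 and Cd81, the genes with the closest profile over the 6 libraries were listed by the root mean square difference between centred log2 CPM values, among 8394 genes with a mean of at least 10 CPM. Nearest to Tspan32 were the macrophage scavenger protein gene Cd5l (difference 0.26), Vcam1 (0.34) and the glutathione transferase gene Gstm2 (0.39). Nearest to Cd81 were the membrane sialoglycoprotein gene Gypc (0.07), the mitochondrial ribosomal RNA gene mt-Rnr1 (0.08) and the selenium carrier gene Selenop (0.11). Among the listed tetraspanins, Tspan3 was nearest to Cd81 (0.15), followed by Cd82 (0.32), and Cd81 was nearest to Tspan32 (0.76). These profiles include the difference between the scaffolds for which Tspan32 and Cd81 were listed. Genes with a like difference thus rank near them by construction, and nothing is read from the closeness. Gypc was at 10.9 ± 1.15 CPM on PCL and 19.4 ± 1.15 CPM on hHVS (SD, n = 3), and Selenop at 1652 ± 188 and 2524 ± 69.0 CPM.

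The levels of megakaryocyte and platelet markers, relevant to Cd9, which platelets carry in quantity, were 36.8 to 64.0 FPKM on PCL and 63.4 to 87.9 FPKM on hHVS in sum. Nearly all of that was Pf4, while Itga2b, the platelet integrin gene, was at no more than 0.0965 FPKM in any library. The Cd9 means were 566 CPM on PCL and 486 CPM on hHVS, and the libraries of this sum overlapped between the scaffolds. The part of the macrophage, stromal and platelet marker sums in the tetraspanin values was not tested.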

How the data were processed

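Messenger RNA of mouse bone marrow mononuclear cells was measured in 6 libraries, 3 per scaffold. The authors deposited estimated counts and FPKM values per gene; the build mm10 and the programs STAR, featureCounts, FastQC and MultiQC are named, without versions, per the submitters' processing notes, which do not say what program made each table. The deposited counts are whole numbers but were read as rounded estimated counts, because the value 4 filled 6544 cells against 2701 with 3 and 1483 with 5; the tests had been chosen for raw counts and were kept, as edgeR takes rounded estimated counts.

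Genes were filtered with filterByExpr (minimum count 10, in units of estimated count and not fragments) and scaled with TMM factors. The scaffolds were compared with edgeR 4.0.16 in R 4.3.3 (glmQLFit and glmQLFTest), with Benjamini-Hochberg adjustment over 16364 genes and a threshold of 0.05. Intervals are 95% from the SE and the test's degrees of freedom and are not adjusted for multiple tests. DESeq2 1.42.0, limma 3.58.1 (voom, and log2 FPKM with 1 or 0.1 added), library totals, no filter, a replicate block and each library left out were alternatives. Also among the 15 alternatives, but not planned, were counts divided by 4 and rounded, and PCL replicate 3 and hHVS replicate 2 both left out. The fits were tested on simulated counts. Floors cover counting error only, whereas the intervals include the spread between libraries.

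The members and all gene lists were chosen with earlier results of these data known. Named were all members, each related list's genes past the threshold or otherwise its most abundant gene, tested neighbours of Tspan32 and Cd81, and the 3 genes nearest to each in profile. Marker lists are given as sums, with the gene that leads a list or is at 0. Tspan13 and Itga2b were named outside this rule, after their values were seen. Coordinates came from GENCODE M21 (51633 identifiers matched, 99.5%) and promoters from RefSeq. Libraries of a group were distinct (chi-square per gene at least 38.7). The values of 1 gene of the lists are not reported here.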

Additional observations from a re-analysis of the deposited data

How the results depend on the processing

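Over all genes, 92 were called higher and 49 lower. The numbers were 439 and 323 with DESeq2, 54 and 22 with no filter, 35 and 32 with log2(FPKM + 0.1), and 47 and 19 with PCL replicate 3 and hHVS replicate 2 both left out, an alternative chosen after seeing the data. Counts divided by 4 and rounded, which were also not planned, gave 101 and 64. With log2(FPKM + 1) 49 were higher, and with library totals 74 were lower. With 1 library left out, 20 to 94 were higher and 10 to 60 lower.

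Of the 10 tetraspanins 3 were called higher. The count was 1 with log2(FPKM + 0.1), 0 with both libraries left out, and 1 to 3 with 1 library left out. Vcam1 was the only gene called of 19 tested partner genes. The count was 3 with DESeq2 (4.85% of all genes), 1 with counts divided by 4, and 0 in every other alternative, leave-outs included. DESeq2, which called 4.85% of all genes, called 1 of 11 endosome genes higher, 1 of 12 other tetraspanins lower and 2 of 11 fusion genes lower. The fusion count was 0 to 1 with 1 library left out and 0 with both left out.

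Signs turned for genes that did not pass: Cd53 to -0.058 with library totals, -0.048 with log2(FPKM + 1) and -0.048 with log2(FPKM + 0.1), and, with both libraries left out, Cd37 to 0.092, Cd151 to 0.0090, Tspan4 to 0.0018 and Kcnq1 to -0.36. Tspan14 turned to -0.0015 with library totals. With 1 library left out the log2 fold changes spanned -0.16 to 0.043 for Cd37, -0.0056 to 0.057 for Cd53, -0.089 to 0.058 for Cd63, -0.12 to 0.0053 for Tspan4 and -0.026 to 0.92 for Kcnq1. Cd9 and Cd82 kept their sign in all 15 alternatives. The cause of these shifts was not tested.

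Libraries of the groups share replicate numbers, but the correlations of their deviations (0.139, -0.0027 and -0.0679) do not show pairing. With a replicate block, 26 genes were higher and 10 lower, 1 of the 10 tetraspanins and 0 partner genes were called.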
